A study of Mus musculus with 83 samples.

Results

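The genes described here build and cross-link the elastic fibers of the gut wall, together with the matrix proteins that organise them. They are the 5 lysyl oxidases (Lox, Loxl1, Loxl2, Loxl3 and Loxl4), elastin (Eln), fibrillin-1 (Fbn1), fibronectin (Fn1), Sparc and periostin (Postn). Their symbols were matched to the Ensembl identifiers of the count table, which gave all 10 members of 37764 genes listed, and all 10 passed the filter on low counts that left 18325 genes for testing. RNA was sequenced from the proximal part of the colon of 83 mice, 16 at 3 months (mo), 16 at 9 mo, 16 at 15 mo, 17 at 24 mo and 18 at 28 mo. Every mouse was a male of the C57BL/6J/Ukj strain and, per the labels, had been housed for aging alone, with no transgene or treatment named; females and other strains are not covered. Each mouse was sampled once, so the ages hold different animals.

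Elastic fibers consist of a core of cross-linked elastin that is laid down on a scaffold of fibrillin microfibrils, and they let the gut wall and its vessels recoil after stretch. Lysyl oxidases are secreted, copper-dependent enzymes that oxidise lysines in elastin and in collagens, after which the chains join covalently. Fibronectin forms the first fibrils on which much of this matrix is assembled, whereas SPARC and periostin are matricellular proteins that bind collagen and regulate how it is deposited. In the colon these genes are transcribed mainly in fibroblasts, smooth muscle and cells of the vessel wall.

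Total counts per mouse ranged from 23026370 to 75838290 (median 35495123), and each of the 3 library batches held 4 to 7 mice of each age. The tissue label was met by its markers: the 6 epithelial markers summed to medians of 14030 to 15860 CPM (counts scaled to a common library size with TMM factors) and the 6 smooth muscle markers to medians of 3559 to 4403 CPM over the 5 ages. In 5 mice, 3 at 3 mo and 2 at 9 mo, the smooth muscle sum lay between 828 and 1590 CPM, below 0.5 of the median of all mice (4110). A further 3 mice, 2 at 24 mo and 1 at 28 mo, carried pancreatic acinar markers at summed levels of 58.2 to 120 CPM against a median of 0.0671 over all mice. Calls on the members that were gained or lost without these mice are given with both values.

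Compared per unit of transcript length, as TPM (counts divided by transcript length and scaled to a common total), the 10 members spanned a wide range (see the plot of TPM by gene). Sparc was the most abundant member, at a median of 112 TPM over the 83 mice (65.7 to 160). Postn (51.9 TPM, 33.4 to 73.6) and Fn1 (46.0 TPM, 17.5 to 74.7) followed and were not separated beyond their spread, since Postn exceeded Fn1 in 63 of the 83 mice. These 3 genes stood above every enzyme and above both fiber proteins in median level. Among the enzymes, Loxl2 led (15.5 TPM), followed by Loxl1 (12.3 TPM). The fiber proteins came next, with Fbn1 at 9.08 TPM and Eln at 6.80 TPM. Loxl3 (4.81 TPM) and Lox (4.53 TPM) did not differ beyond their spread, with Loxl3 the higher in 50 of 83 mice. Loxl4 had the lowest level (1.96 TPM) and rested on 48 to 222 read pairs per mouse, the fewest of the members.

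**Figure D1:**
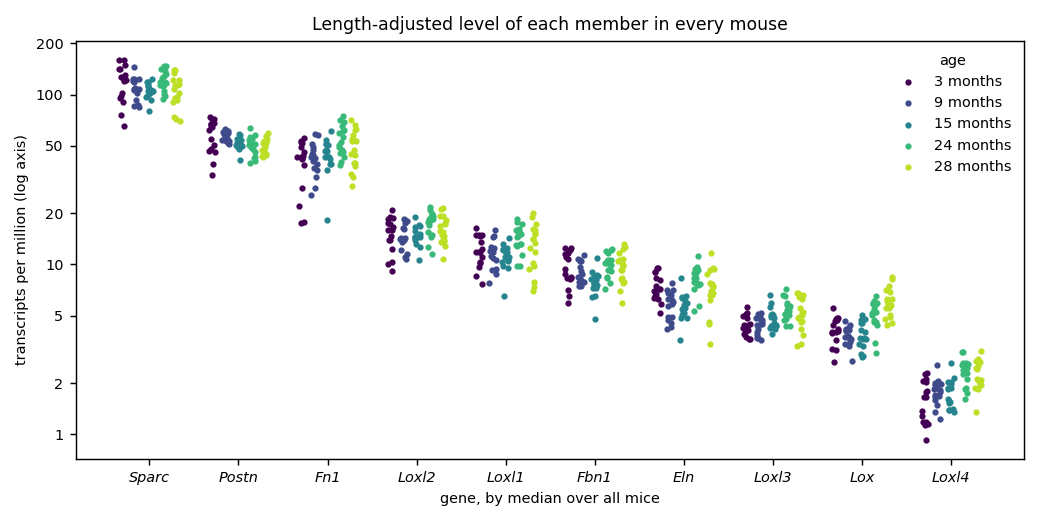
TPM (log axis) of each of the 10 members in every mouse, ordered by the median over all mice and coloured by age. Sparc lies at the top between 65.7 and 160 TPM and Loxl4 at the bottom between 0.933 and 3.12 TPM.

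Across the 5 ages, 8 of the 10 members differed between ages in the joint test of edgeR (Benjamini-Hochberg adjusted p below 0.1), beside 54.9% of all genes tested. The steps between neighbouring ages were not alike. From 3 to 9 mo, 1 member changed, Eln, which fell (8.69% of all genes were called at this step, 5.05% lower). From 9 to 15 mo, edgeR called no member (0.431% of all genes), with 2 at an unadjusted p under 0.05 and 0 called by DESeq2. From 15 to 24 mo, 5 members rose and none fell, beside 13.5% of all genes called and 6.28% called higher. From 24 to 28 mo, edgeR called no member (11.7% of all genes), with 2 at an unadjusted p under 0.05 and 2 called by DESeq2. The median log2 fold change of the 10 members was 0.30 from 15 to 24 mo, against 0.002 over all genes tested, and lay between -0.13 and -0.01 at the other 3 steps. Between the extremes of 3 and 28 mo, 4 members rose and 2 fell, beside 49.4% of all genes called (23.5% higher and 25.9% lower). Between 15 and 28 mo, 4 members rose, beside 42.4% of all genes called (20.2% higher). The comparisons of 24 and 28 mo with 15 mo share the same 15 mo mice, and those with 3 mo share the 3 mo mice. As these are bulk samples, a higher or lower level may reflect more or fewer cells of a type or more or less RNA per cell, which cannot be told apart.

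**Figure D2:**
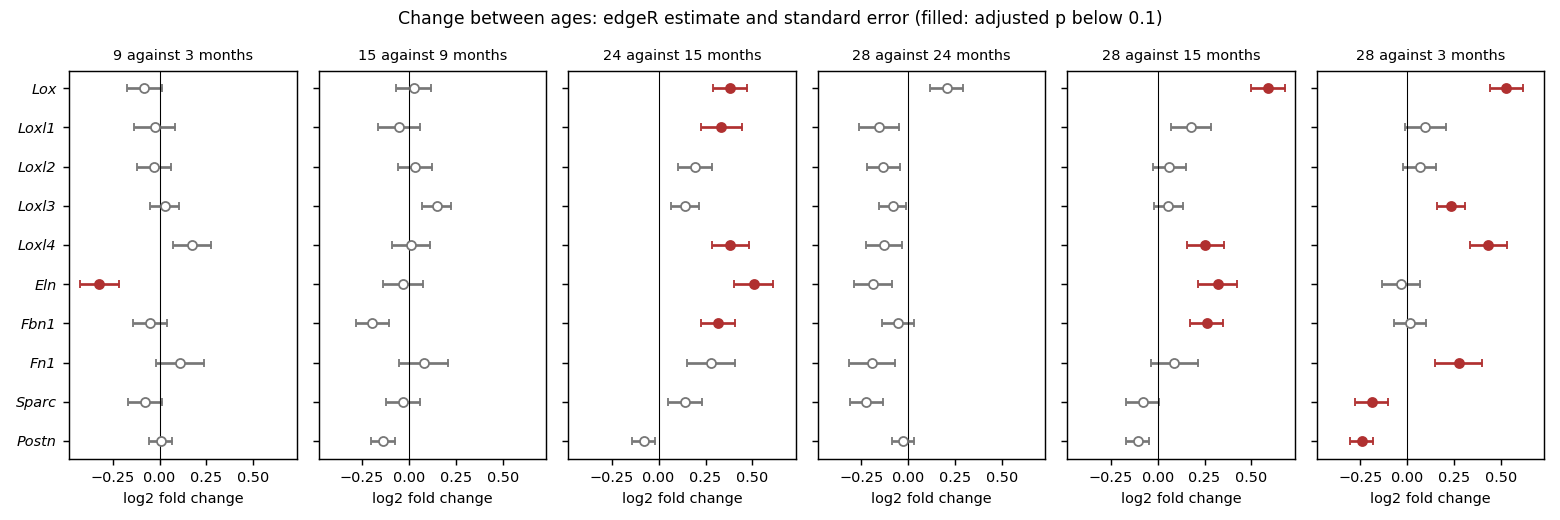
Log2 fold change (edgeR estimate) with its standard error for each member in 6 comparisons of ages; filled points have an adjusted p below 0.1. From 15 to 24 months 5 points are filled, all to the right of 0, and from 9 to 15 and from 24 to 28 months none is filled.

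Elastin, the rubber-like core protein, fell in early adult life and was back up in old mice. Eln (ENSMUSG00000029675; chromosome 5, 134702593 to 134747323, minus strand, GRCm38) was at a median of 19.1 CPM at 3 months (lowest 14.1, highest 26.5), 15.9 (11.3 to 21.2) at 9 months, 15.4 (9.47 to 21.4) at 15 months, 21.4 (13.9 to 28.9) at 24 months and 19.5 (8.78 to 29.2) at 28 months. Mice of 9 and 15 mo were low and mice of 3 and 24 mo high, with overlap between every pair of ages: 13 of 16 mice at 9 mo were below the 3 mo median, and 15 of 17 mice at 24 mo were above the 15 mo median. Eln fell by 0.32 on the log2 scale from 3 to 9 mo (SE 0.106, edgeR adjusted p = 0.0608). That call was lost without the 5 mice low in smooth muscle markers (-0.32, adjusted p = 0.122) and in 3 of the 83 fits that left out 1 mouse, and the estimates within the 3 batches were -0.33, -0.41 and -0.26. From 15 to 24 mo Eln rose by 0.51 (SE 0.105, adjusted p = 0.000981), the largest estimate of the 10 members at this step, with 0.43, 0.36 and 0.76 within the batches. At 28 mo its values were the most scattered of the 5 ages (coefficient of variation 26.7%, against 17.2% to 19.6% at the younger ages). It remained above 15 mo by 0.32 (SE 0.103, adjusted p = 0.0115), and against 3 mo the difference was -0.03 (SE 0.102, adjusted p = 0.821). Eln also had the smallest p of the members in the test for bends in the course over age, that is, for departure from a line (adjusted p = 0.000709), a test that called 3 members, Eln, Lox and Fbn1, beside 16.2% of all genes.

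Fibrillin-1, the main subunit of the microfibrils that scaffold elastin, had its lowest level at 15 mo. Fbn1 (ENSMUSG00000027204; chromosome 2, 125300594 to 125507993, minus strand) was at a median of 35.8 CPM at 3 months (lowest 24.8, highest 48.8), 35.3 (30.2 to 44.7) at 9 months, 32.2 (19 to 42) at 15 months, 39.1 (28 to 48.2) at 24 months and 38 (23 to 51.1) at 28 months. The 15 mo mice were the low group, and 15 of 17 mice at 24 mo exceeded their median, 6 of them their highest value. The step from 9 to 15 mo was not called (-0.20 on the log2 scale, SE 0.0896, edgeR adjusted p = 0.48). Fbn1 rose by 0.32 from 15 to 24 mo (SE 0.0885, edgeR adjusted p = 0.0169), with 0.13, 0.20 and 0.66 within the 3 batches, and was higher at 28 than at 15 mo by 0.26 (SE 0.0873, adjusted p = 0.0143). Its difference between 3 and 28 mo was 0.01 (SE 0.0866, adjusted p = 0.908), a value that the marker scores as covariates turned to -0.17 (adjusted p = 0.00846). The departure from a straight line had an adjusted p of 0.0514 and was lost (0.108) without replicate 16 of the 15 mo mice. Of the bases in Fbn1 exons, 20.1% are shared with a gene model on the other strand, Gm9913, but counting was by strand.

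Lox, the founding enzyme of the family and the one most tied to elastin and fibrillar collagen, had the largest estimates of the 10 members at 28 mo against both 15 and 3 mo. Lox (ENSMUSG00000024529; chromosome 18, minus strand) was at a median of 6.43 CPM at 3 months (lowest 4.4, highest 9.02), 6.12 (4.75 to 7.43) at 9 months, 6.14 (4.45 to 8.54) at 15 months, 8.4 (4.6 to 10.8) at 24 months and 8.78 (6.93 to 13.5) at 28 months. The 3 younger ages lay close together, 24 mo was higher, and 28 mo the highest: all 18 mice at 28 mo were above the 3 mo median and 8 of them above the highest 3 mo mouse. From 15 to 24 mo Lox rose by 0.38 (SE 0.0909, edgeR adjusted p = 0.00496), and the estimates within batches were 0.22, 0.32 and 0.61. From 24 to 28 mo the estimate was a further 0.21 (SE 0.0874, adjusted p = 0.137), which DESeq2 called (0.22, adjusted p = 0.0986), as did edgeR without the 3 mice with pancreatic markers (0.26, adjusted p = 0.0677) and without the 5 mice low in smooth muscle markers (0.22, adjusted p = 0.0988). At 28 mo Lox was higher than at 15 mo by 0.59 (SE 0.0903, adjusted p = 3.26e-07) and higher than at 3 mo by 0.53 (SE 0.0896, adjusted p = 1.45e-06), with 0.47, 0.33 and 0.73 within the batches. It was the only enzyme called for departure from a straight line (adjusted p = 0.0208).

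Loxl4, a family member with additional scavenger receptor domains, rose in the same comparisons as Lox, at a lower level of expression. Loxl4 (ENSMUSG00000025185; chromosome 19, 42593982 to 42612813, minus strand) was at a median of 2.28 CPM at 3 months (lowest 1.36, highest 3.08), 2.5 (1.8 to 3.42) at 9 months, 2.43 (1.85 to 4.18) at 15 months, 3.42 (2.23 to 4.32) at 24 months and 2.88 (1.82 to 4.14) at 28 months. Mice of 3 mo were lowest and mice of 24 mo highest, and 17 of 18 mice at 28 mo were above the 3 mo median. The rise from 15 to 24 mo was 0.38 (SE 0.0997, edgeR adjusted p = 0.0103), with 0.16, 0.38 and 0.63 within the batches. At 28 mo Loxl4 was higher than at 3 mo by 0.43 (SE 0.0988, adjusted p = 0.00024) and than at 15 mo by 0.25 (SE 0.0989, adjusted p = 0.0373). No departure from a straight line was called (adjusted p = 0.286).

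The remaining enzymes changed less. Loxl1 (ENSMUSG00000032334; chromosome 9, 58287738 to 58313186, minus strand), the enzyme known for the renewal of elastic fibers in adult tissue, was at a median of 13.1 CPM at 3 months (lowest 8.73, highest 18.5), 13 (8.42 to 17.2) at 9 months, 13.1 (7.04 to 15.1) at 15 months, 15.5 (10.4 to 21.2) at 24 months and 14.9 (7.32 to 21.4) at 28 months. Its 24 mo mice were high, 10 of 17 above the highest 15 mo mouse, and its 28 mo mice were the most scattered (coefficient of variation 29.8%, against 15.5% to 20.1% at the younger ages). Loxl1 rose by 0.33 from 15 to 24 mo (SE 0.109, edgeR adjusted p = 0.0445), and at 28 mo it differed from 15 mo by 0.18 (SE 0.108, adjusted p = 0.201) and from 3 mo by 0.10 (SE 0.107, adjusted p = 0.485). Within the batches the former was -0.11, 0.24 and 0.32 and the latter -0.21, 0.20 and 0.21. In 2 of the 83 fits that left out 1 mouse, Loxl1 was called at 28 against 15 mo (lowest edgeR adjusted p = 0.0949). Its joint test over ages passed (adjusted p = 0.0509), and was lost without replicate 3 of the 24 mo mice (0.102) or without the 3 mice with pancreatic markers (0.13).

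Loxl3 (ENSMUSG00000000693; chromosome 6, 83034173 to 83052562, plus strand) had medians of 6.51, 6.74, 7.36, 8.01 and 7.55 CPM from the youngest to the oldest age, within a range of 4.99 to 10.6 CPM. No step between neighbouring ages was called for it, whereas at 28 mo it was higher than at 3 mo by 0.23 (SE 0.0755, edgeR adjusted p = 0.00941). On the opposite strand, Htra2 shares 11.6% of the bases in Loxl3 exons. Loxl2 (ENSMUSG00000034205; chromosome 14, 69609068 to 69695834, plus strand), which oxidises collagen IV of basement membranes, ranged from 17.0 to 39.9 CPM and was called in no comparison of 2 ages with all mice and without covariates. Its largest estimate was 0.19 from 15 to 24 mo (SE 0.0895, adjusted p = 0.166).

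**Figure D3:**
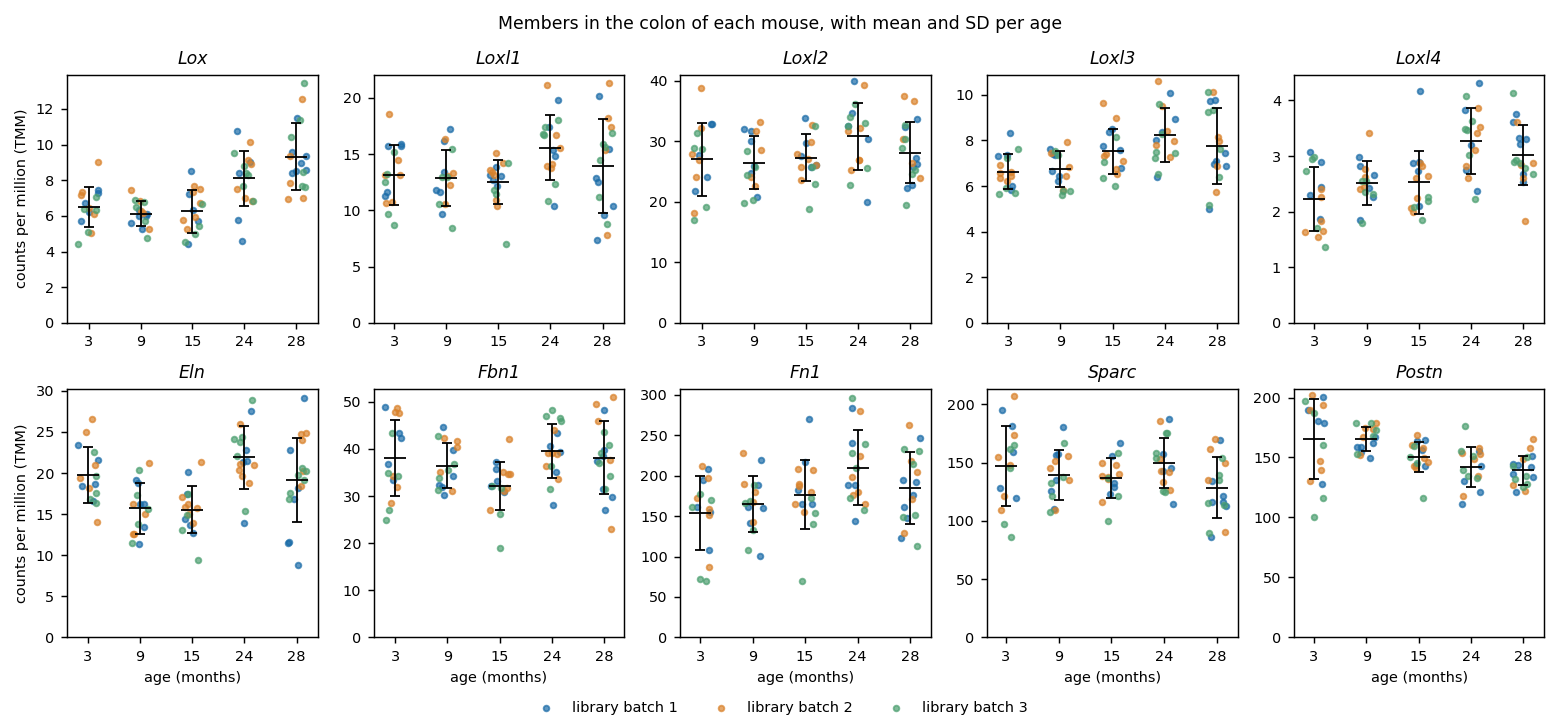
CPM (TMM-scaled, axes from 0) of each member in every mouse by age; colours mark the 3 library batches and bars the mean and SD of each age. Eln is low at 9 and 15 months and high at 3 and 24 months, Lox is highest at 28 months, and Postn is spread widely at 3 months (101 to 202 CPM).

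The matrix organisers did not move together. Postn (ENSMUSG00000027750; chromosome 3, 54361109 to 54391037, plus strand) was at a median of 180 CPM at 3 months (lowest 101, highest 202), 167 (150 to 179) at 9 months, 150 (117 to 169) at 15 months, 143 (111 to 176) at 24 months and 139 (121 to 165) at 28 months. Its 3 mo mice were spread over the whole range, all 16 mice at 9 mo and all 18 at 28 mo lay below the 3 mo median, and none lay below the lowest 3 mo mouse. At 28 mo Postn was lower than at 3 mo (log2 fold change -0.24, SE 0.0613, edgeR adjusted p = 0.000895), and the estimates were -0.32, -0.20 and -0.12 within the batches. Without the 5 mice low in smooth muscle markers, which include the 2 lowest 3 mo mice for Postn, the difference was -0.32 (adjusted p = 1.49e-06). From 3 to 9 mo Postn was not called (0.006, SE 0.063, edgeR adjusted p = 0.973), and its mean was 165 CPM at both ages. Within the batches this estimate was -0.13, 0.04 and 0.21. The steps from 9 to 15 mo (-0.14, SE 0.0632, adjusted p = 0.468) and from 15 to 24 mo (-0.08, SE 0.0623, adjusted p = 0.46) were not called, and neither was a departure from a straight line (adjusted p = 0.747).

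Fn1 (ENSMUSG00000026193; chromosome 1, 71585520 to 71653200, minus strand), the gene for fibronectin, was at a median of 161 CPM at 3 months (lowest 70.1, highest 212), 167 (101 to 228) at 9 months, 176 (69.4 to 271) at 15 months, 199 (144 to 296) at 24 months and 184 (114 to 263) at 28 months. Its 24 mo mice were the high group and no mouse of that age fell below 144 CPM, while 3 and 15 mo mice reached down to 70.1 and 69.4 CPM. The estimate from 15 to 24 mo was 0.28 (SE 0.127, edgeR adjusted p = 0.157), and it was larger in batch 3 (0.75) than in batches 1 and 2 (0.05 and 0.13). Without replicate 15 of the 15 mo mice it was called (adjusted p = 0.0804), as it was without the 5 mice low in smooth muscle markers (0.27, adjusted p = 0.0899). At 28 mo Fn1 was higher than at 3 mo by 0.28 (SE 0.125, adjusted p = 0.0675), a call that was lost without the 5 mice low in smooth muscle markers (0.13, adjusted p = 0.385) and in 7 of the 83 fits that left out 1 mouse.

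Sparc (ENSMUSG00000018593; chromosome 11, 55394500 to 55423183, minus strand) ranged from 86.0 to 207 CPM, with medians of 152, 136, 137, 146 and 128 CPM from the youngest to the oldest age. Mice of 28 mo were the low group, 14 of 18 below the 3 mo median and 13 of 18 below the 24 mo median, again with overlap. The level at 28 mo was lower than at 3 mo (log2 fold change -0.19, SE 0.0877, edgeR adjusted p = 0.0726), and this call was lost in 10 of the 83 fits that left out 1 mouse. From 24 to 28 mo the estimate was -0.22 (SE 0.0863, adjusted p = 0.101), just outside the threshold, and it was called by DESeq2 (adjusted p = 0.0905) and by edgeR without the 5 mice low in smooth muscle markers (-0.21, adjusted p = 0.0682). The joint test over ages was not passed by Sparc with all mice (adjusted p = 0.153) and was passed without those 5 (adjusted p = 0.0234).

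Markers of several cell types moved in the same comparisons as the members. From 15 to 24 mo, 2 of 6 fibroblast markers, 5 of 6 endothelial markers, 2 of 5 pericyte markers, 4 of 6 macrophage markers and 2 of 3 skeletal muscle markers tested rose, beside 6.28% of all genes. So did 1 of 4 enteric glia and 1 of 4 mesothelial markers. In the same comparison 1 of 4 mesothelial and 1 of 4 goblet markers fell, and edgeR called 0 of 6 smooth muscle markers (0 at an unadjusted p under 0.05). The summed fibroblast markers had medians of 385, 389, 403, 460 and 458 CPM over the 5 ages, with ranges from 268 to 520 CPM at 3 mo and from 357 to 606 CPM at 28 mo. The endothelial sums ranged from 77.7 to 148 CPM at 15 mo and from 135 to 157 CPM at 24 mo. At 28 against 3 mo, 3 of 6 fibroblast, 5 of 6 endothelial, 4 of 5 pericyte, 3 of 4 mesothelial (1 lower), 3 of 3 erythroid, 5 of 6 macrophage, 2 of 3 skeletal muscle and 2 of 5 adipocyte markers were higher. Lower were 3 of 4 goblet (1 higher), 3 of 4 B cell and 2 of 6 epithelial markers, beside 23.5% of all genes called higher and 25.9% called lower. At 28 against 15 mo, 2 of 6 fibroblast, 4 of 6 endothelial, 2 of 5 pericyte, 3 of 4 mesothelial (1 lower), 3 of 3 erythroid, 4 of 6 macrophage, 2 of 4 T cell, 1 of 5 adipocyte, 1 of 4 enteric glia and 1 of 3 skeletal muscle markers were higher. In that comparison 4 of 4 plasma cell, 3 of 4 B cell and 3 of 4 goblet markers were lower, beside 42.4% of all genes called. No marker of the fibroblast, smooth muscle and endothelial lists was at 0 in all mice. With the fibroblast and smooth muscle scores (means of the markers' log2 CPM) as covariates, the rises from 15 to 24 mo were 0.32 for Eln, 0.31 for Lox, 0.30 for Loxl4 and 0.15 for Fbn1 and were all still called by edgeR (adjusted p = 0.0028, 0.0155, 0.0272 and 0.0629). Loxl1 was no longer called with these covariates (0.12, adjusted p = 0.233). In the same fit the calls at 28 against 3 mo were lost for Loxl3 (0.12, adjusted p = 0.162) and Fn1 (0.02, adjusted p = 0.812). The joint test over ages was also no longer passed by Fn1 (adjusted p = 0.538, against 0.0148 without the covariates). The calls for Lox (0.46), Loxl4 (0.32), Sparc (-0.38) and Postn (-0.32) at 28 against 3 mo remained. Called as lower at 28 than at 3 mo only with these covariates were Eln (-0.24, adjusted p = 0.00625), Fbn1 (-0.17, adjusted p = 0.00846), Loxl1 (-0.16, adjusted p = 0.0283) and Loxl2 (-0.12, adjusted p = 0.0553), the last 3 with a sign opposite to that without the covariates. The other calls gained with them were, for Sparc, lower levels at 9 than at 3 mo (-0.14, adjusted p = 0.0594), at 28 than at 24 mo (-0.17, adjusted p = 0.0105) and at 28 than at 15 mo (-0.19, adjusted p = 0.000754). Sparc also passed the joint test over ages (adjusted p = 1.29e-08). Postn was then lower at 24 and at 28 than at 15 mo (-0.15 and -0.13, adjusted p = 0.0514 and 0.0313). Fbn1 was lower at 15 than at 9 mo (-0.20, adjusted p = 0.0505) and Lox higher at 28 than at 24 mo (0.24, adjusted p = 0.0511). The part of the endothelial, pericyte, mesothelial, erythroid, macrophage, skeletal muscle, adipocyte, T cell, enteric glia, goblet, B cell, plasma cell and epithelial markers in these changes was not tested.

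Since Loxl4 rose and Postn fell between 3 and 28 mo, the RefSeq promoter windows of this pair are printed, from 250 bases before to 50 after the start site (GRCm38.p6). Windows were found for 4 of the 10 members, Loxl4, Fbn1, Sparc and Postn (the last with 2 windows). Capitals mark a match to the TATA box letters TATAAA.
Loxl4 (chr19:42612757-42613056, minus strand): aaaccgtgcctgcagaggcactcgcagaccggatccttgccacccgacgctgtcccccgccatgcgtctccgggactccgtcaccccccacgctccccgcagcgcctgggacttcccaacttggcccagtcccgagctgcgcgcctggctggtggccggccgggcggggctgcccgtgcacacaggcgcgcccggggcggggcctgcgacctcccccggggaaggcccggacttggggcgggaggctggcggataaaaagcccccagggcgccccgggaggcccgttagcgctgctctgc
Postn (chr3:54360857-54361156, plus strand): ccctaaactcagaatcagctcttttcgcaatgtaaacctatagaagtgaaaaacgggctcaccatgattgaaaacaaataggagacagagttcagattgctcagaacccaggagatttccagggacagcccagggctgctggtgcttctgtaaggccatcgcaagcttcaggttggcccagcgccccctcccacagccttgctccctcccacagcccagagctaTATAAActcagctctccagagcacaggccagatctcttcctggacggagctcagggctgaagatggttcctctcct
The Loxl4 window had 75% G and C and the Postn window 53%. The other Postn window (chr3:54359017-54359316) held no match to any motif searched and is not printed; the one shown spans the annotated start of the gene. The TATAAA match in the printed window begins 26 bases before the start site, and 13.6% of the 32851 RefSeq windows hold these letters on either strand. Neither TGANTCA, the letters bound by AP-1 (in 7.81% of all windows), nor GGAATG, those bound by TEAD factors (in 14.7%), was found in any of the 5 windows of the members on either strand, which says only that these letters are not in these windows.

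Within the lysyl oxidase family, the share of Lox had its highest median in the oldest mice. Lox made up a median of 11.1% of the summed TPM of the 5 enzymes at 3 mo (10% to 12.6%), 10.1% at 9 mo (7.58% to 15.1%), 10.8% at 15 mo (7.68% to 13.9%), 11.4% at 24 mo (8.01% to 15.1%) and 14% at 28 mo (10.4% to 23.0%). The shares overlapped between ages, and 3 mo mice were the least spread. Loxl2 went from a median of 40.7% at 3 mo to 37.6% at 28 mo, while Loxl1 remained near 30.2% to 32.2%. The summed level of the 5 enzymes had medians of 39.0, 36.3, 36.5, 46.4 and 41.5 TPM over the 5 ages. The ratio of Fn1 to Postn, as TPM, had medians of 0.704, 0.727, 0.869, 1.07 and 0.989, so that fibronectin transcripts overtook those of periostin in the median mouse at 24 mo only. These shares and ratios are descriptions and were not tested.

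Genes around these members were examined in lists of partners, substrates and regulators. Of 16 other genes of elastic fiber and microfibril assembly, 6 rose and 1 fell from 15 to 24 mo (13.5% of all genes were called and 6.28% called higher), with a median log2 fold change of 0.23. Risers at both 15 to 24 mo and 3 to 28 mo included Mfap4, a microfibril-associated glycoprotein (0.34 and 0.44, edgeR adjusted p = 0.0296 and 0.000297), Emilin2, an elastin microfibril interface protein (0.42 and 0.49, adjusted p = 0.0822 and 0.008), and Ltbp2, a protein that binds fibrillin (0.49 and 0.49, adjusted p = 0.024 and 0.00434). Fbn2, the fibrillin of developing tissue, fell in both (-0.36 and -0.77, adjusted p = 0.0783 and 1.46e-06). Its level went from a median of 3.37 CPM at 3 mo (1.53 to 4.14) to 1.74 CPM at 28 mo (0.749 to 2.93). Between 3 and 28 mo the list counted 9 genes higher and 2 lower of 16, beside 23.5% and 25.9% of all genes.

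Collagens are the other main substrate of lysyl oxidases. Of 7 collagen chains, 1 rose from 15 to 24 mo, beside 13.5% of all genes called and 6.28% called higher. From 24 to 28 mo 3 chains fell (11.7% of all genes were called at that step). At 28 mo 2 were lower than at 3 mo, namely Col3a1 (-0.31, SE 0.101, edgeR adjusted p = 0.00965) and Col1a1 (-0.28, SE 0.109, adjusted p = 0.0325), a count near the 25.9% of all genes called lower. Of 12 genes that process procollagen or modify its residues, 5 were lower and 2 higher at 28 than at 3 mo, beside 49.4% of all genes called. The fallers included P4ha1, a subunit of prolyl 4-hydroxylase (-0.67, adjusted p = 2.1e-09), Serpinh1, the collagen chaperone HSP47 (-0.51, adjusted p = 0.000176), and Plod1, a lysyl hydroxylase (-0.32, adjusted p = 8.08e-06). Pcolce2, an enhancer of procollagen C-proteinase, was higher (0.41, adjusted p = 0.0434).

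Of 17 other matricellular genes, 7 were higher and 2 lower at 28 than at 3 mo, with Thbs2 (0.64, edgeR adjusted p = 2.96e-06) and Thbs4 (0.44, adjusted p = 0.00194), both thrombospondins, among the risers, and with Spp1, the gene for osteopontin (-1.03, adjusted p = 0.00052), and Ccn3 (-0.48, adjusted p = 0.000118) the fallers. Spp1 did not fall throughout: its medians were 0.958, 2.07, 1.72, 0.78 and 0.516 CPM over the 5 ages, and it was higher at 9 than at 3 mo (0.95, edgeR adjusted p = 0.011) before it was lower at 24 than at 15 mo (-1.03, adjusted p = 0.00355). Among 9 integrin genes 2 were higher, Itga8 (0.56, adjusted p = 0.00014) and Itgb6 (0.25, adjusted p = 0.00308). Of 9 genes of TGF-beta signaling, 5 were higher and 1 lower, with the ligand gene Tgfb3 (0.33, adjusted p = 0.0113) and the receptor genes Tgfbr3 (0.36, adjusted p = 1.74e-05) and Tgfbr2 (0.24, adjusted p = 3.05e-06) among them. The median log2 fold changes between 3 and 28 mo were -0.11 for the collagens, -0.04 for procollagen processing, 0.14 for the matricellular genes, 0.03 for the integrins and 0.19 for the TGF-beta genes, against -0.01 for all genes tested, of which 49.4% were called.

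Of the enzymes that degrade elastin, 8 of 9 were tested, 3 were higher and 1 lower at 28 than at 3 mo, close to the share of all genes called (49.4%). At 28 against 15 mo all 8 were called, 6 higher and 2 lower, beside 42.4% of all genes. Mmp12, the macrophage elastase, had a median of 0.791 CPM at 3 mo (0.414 to 1.30), 0.914 CPM at 9 mo (0.362 to 1.34), 0.99 CPM at 15 mo (0.567 to 1.65), 4.99 CPM at 24 mo (2.33 to 9.87) and 5.95 CPM at 28 mo (2.08 to 12.2). The 3 younger ages and the 2 older ages did not overlap. The share of all genes that separate these ages in this way was not computed. Mmp12 rose by 2.16 on the log2 scale from 15 to 24 mo (SE 0.204, edgeR adjusted p = 1.63e-13) and was 3.01 higher at 28 than at 3 mo (SE 0.209, adjusted p = 2.14e-21). Ctsk, the gene for cathepsin K, was higher by 0.33 and 0.55 in these comparisons (adjusted p = 0.00803 and 1.13e-07). The others called at 28 against 3 mo were Mmp14, a membrane-bound metalloproteinase (0.18, adjusted p = 0.00134), and Ctsl, the gene for cathepsin L, which was lower (-0.30, adjusted p = 7.86e-06). Mmp9, the gene for gelatinase B, is named here after its values were seen. It was higher at 9 than at 3 mo (0.56, edgeR adjusted p = 0.0179), lower at 24 than at 15 mo (-0.39, adjusted p = 0.0815) and lower at 28 than at 24 mo (-0.43, adjusted p = 0.0457), so that it was lower at 28 than at 15 mo (-0.82, adjusted p = 5.36e-06) and differed from 3 mo by 0.09 (adjusted p = 0.657). Of 6 macrophage markers, 4 rose from 15 to 24 mo and 5 were higher at 28 than at 3 mo, and their part in the rise of Mmp12 was not tested.

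**Figure D4:**
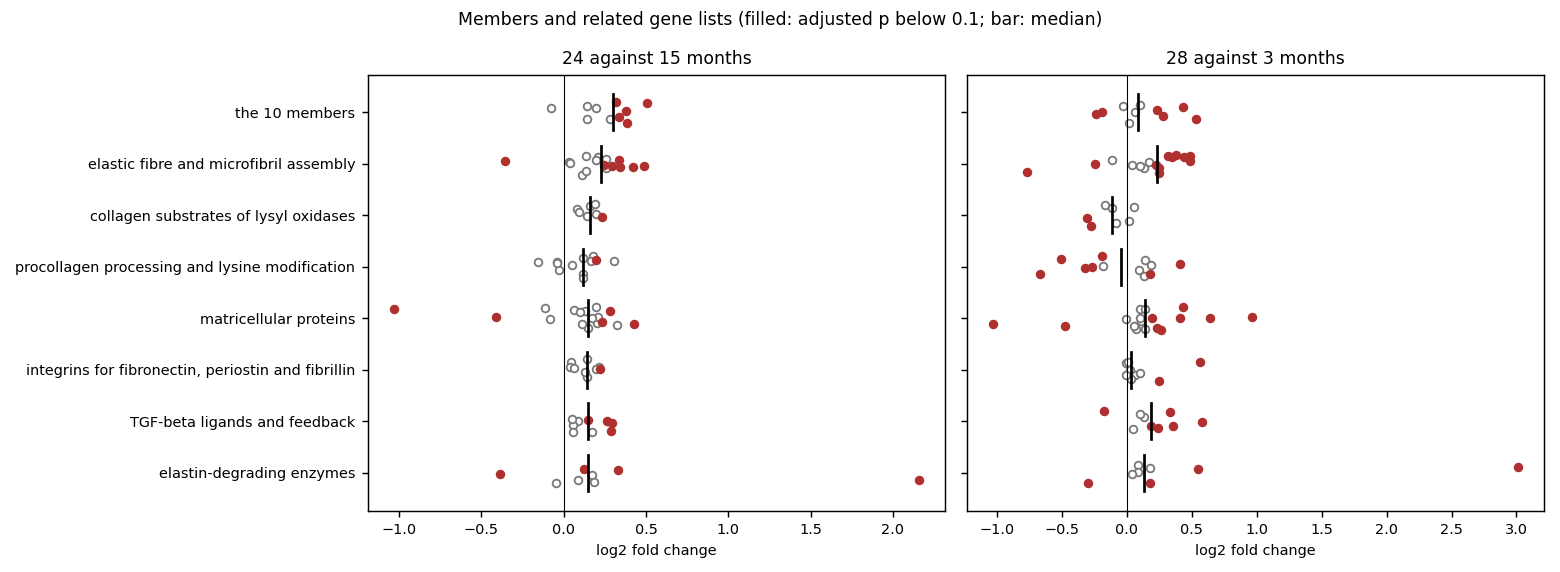
Log2 fold changes of the 10 members and of 7 lists of related genes, from 15 to 24 months on the left and from 3 to 28 months on the right; each point is a gene, filled where the adjusted p is below 0.1, and bars are list medians. The members' median is 0.30 on the left and 0.08 on the right, and the point farthest to the right in both panels is Mmp12.

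Mice that were high for 1 member tended to be high for the others. After the age and batch means were removed from log2 CPM, the 45 pairs of members had Pearson's r from 0.22 to 0.91 over 83 mice (median 0.60), and all 45 had an adjusted permutation p below 0.1, for r and for rho, in a family of 85 relations. The share of other gene pairs that would pass was not computed, and genes outside the members reached r of up to 0.93 to them, so nothing particular to the members is read from this count. The closest pair was Loxl1 and Sparc (r = 0.91, Spearman's rho = 0.92, permutation p = 1e-05 for each, the smallest that 100000 permutations can give, adjusted p = 1.52e-05). Their r was 0.90 without the 2 mice farthest from the median of Loxl1, and 0.91, 0.93 and 0.91 within the 3 batches. Loxl2 was tied to Sparc (r = 0.90, rho = 0.92) and to Fn1 (r = 0.86, rho = 0.85) with the same permutation p. Lox had the lowest median r to the other members (0.49, range 0.22 to 0.53), next to Postn (0.50), Loxl4 (0.52) and Loxl3 (0.55). Its weakest relation, to Loxl3 (r = 0.22, rho = 0.20, permutation p = 0.0474 and 0.0727, adjusted p = 0.0538 for r), fell to 0.10 without 2 mice and was -0.01, 0.48 and 0.23 within the batches, so that it rests on few mice. Lox and Eln, enzyme and substrate, were also only loosely tied (r = 0.24, rho = 0.25, permutation p = 0.0279 and 0.0224, adjusted p = 0.0325 for r), with 0.18 without 2 mice and 0.08, 0.44 and 0.32 within the batches. The 5 mice low in smooth muscle markers contribute to these values, and without them the median r was 0.54.

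The members were also tied to the scores of stromal cell markers. The fibroblast score was most tied to Loxl1 (r = 0.84, rho = 0.84), Sparc (r = 0.84, rho = 0.82) and Fbn1 (r = 0.82, rho = 0.83), each with a permutation p of 1e-05 and an adjusted p of 1.52e-05. Their values within the batches were 0.85, 0.86 and 0.81 for Loxl1, 0.82, 0.85 and 0.84 for Sparc and 0.83, 0.85 and 0.78 for Fbn1. Lox had the lowest r to this score (0.35, rho = 0.31, adjusted permutation p = 0.0014), with 0.30 without 2 mice and 0.19, 0.60 and 0.27 within the batches. The r of members to the epithelial score lay between -0.15 and 0.07, and none of these 10 had an adjusted permutation p below 0.1 for r. Without the 2 mice farthest from each member's median they lay between -0.29 (Fn1) and 0.11 (Postn). There Fn1 moved from -0.03, and Fbn1 from 0.05 to -0.19. By Spearman's rho with all mice, 3 of the 10 had an adjusted permutation p below 0.1, Loxl4 (rho = -0.24, adjusted p = 0.0361), Fn1 (rho = -0.22, adjusted p = 0.0478) and Loxl3 (rho = -0.20, adjusted p = 0.0832).

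**Figure D5:**
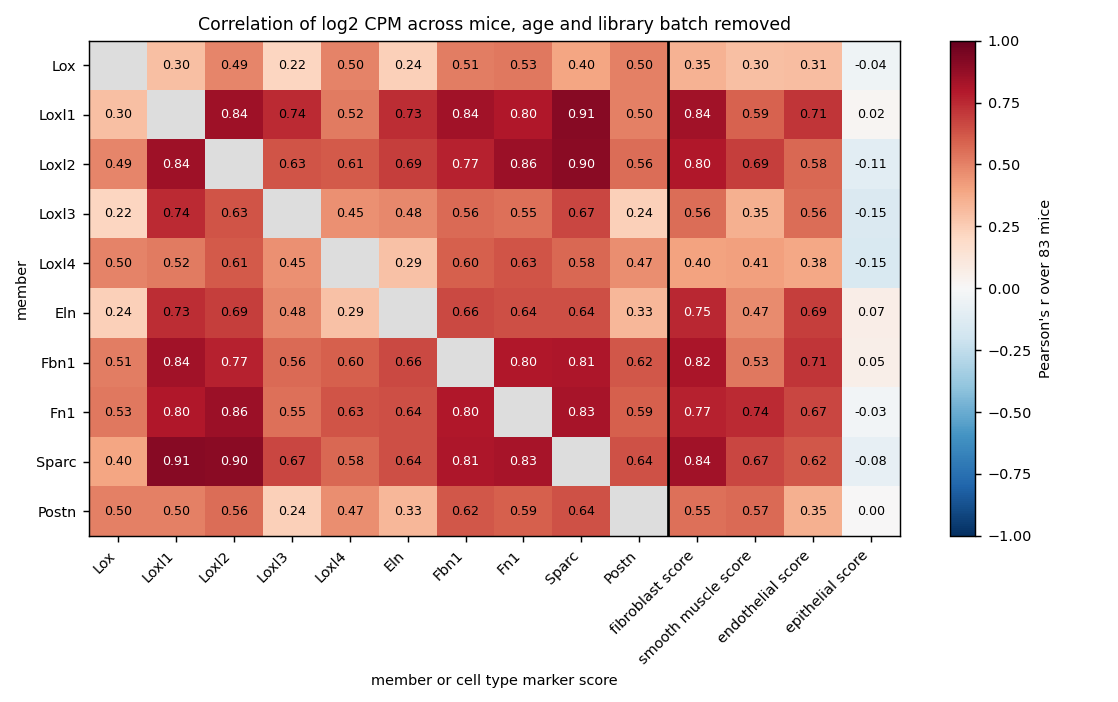
Pearson's r over 83 mice between log2 CPM of members (left of the line) and between members and 4 marker scores (right), with age and batch means removed. Loxl1, Loxl2, Fbn1, Fn1 and Sparc form the darkest block (0.77 to 0.91), and the epithelial column lies between -0.15 and 0.07.

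By the same measure, the 2 genes nearest to each member over the 83 mice were taken from outside the members. Sparc was nearest to Pcolce (r = 0.93, rho = 0.93) and Rcn3 (r = 0.92, rho = 0.93), and Loxl1 to Fbln1 and Col1a1 (r = 0.91 for both). Loxl2 was nearest to Fstl1 (r = 0.89) and Col5a2 (0.88), Fbn1 to Col5a1 (0.86) and Nid1 (0.86), and Fn1 to Tnc (0.89) and Col5a2 (0.89). Eln was nearest to Fbln2 and Spon2 (r = 0.76 for both), Postn to Igsf10 (0.77) and Lum (0.76), and Loxl3 to Itm2c and Eng (0.77 for both). The highest r were lower for Lox and Loxl4, at 0.66 to Qk and 0.66 to Wipf1 for Lox, and 0.69 to C1qtnf1 and 0.67 to Msn for Loxl4. These are the highest of many values and are given without a test.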

How the data were processed

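RNA-seq counts per gene were deposited by the authors for 83 colon libraries. Polyadenylated RNA was prepared with a stranded TruSeq kit and, per the labels and the study's methods, reads were trimmed with cutadapt 2.8, mapped to GRCm38 with HISAT2 2.1.0, filtered with SAMtools 1.9 and counted by strand with featureCounts of Subread 2.0.1. The counts are raw, and replicates were not pooled. Groups are the ages in the labels, and each library is a separate mouse. Of 649 same-age pairs, none agreed within counting noise (lowest chi-square per degree of freedom 10.9).

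Genes were filtered by edgeR's filterByExpr, scaled by TMM and tested with edgeR 4.0.16 (quasi-likelihood F test, R 4.3.3) with age group and library batch over all 83 mice. P-values were adjusted by Benjamini-Hochberg over all 18325 genes, with a threshold of 0.1. CPM use TMM factors, log2 CPM a prior count of 2, and TPM merged exon lengths of GENCODE M21. Correlations were tested with 100000 two-sided permutations. The tests were checked on simulated data. The members and lists were chosen with earlier results of these data known. Named genes were all members, at most 4 called genes per list with the largest change between 3 and 28 months (mean CPM of 1 or more), and the 2 nearest genes per member. Alternatives were DESeq2 1.42.0, its size factors, other filters, a threshold of 0.05, no batch term, a replicate block, score covariates, fewer ages, and leaving out mice. Leaving out the mice low in smooth muscle or carrying pancreatic markers was chosen after seeing the data. Figures were drawn with matplotlib 3.10.9. Sequences are from RefSeq. Protein sequences were not used here. One gene that the naming rule selects is not reported here.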

Additional observations from a re-analysis of the deposited data

How the results depend on the processing

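From 15 to 24 months, 5 members were called as reported and 5 or 6 under each alternative, and 5 to 6 when single mice were left out; with the score covariates the 5 hold Postn (-0.15, adjusted p = 0.0514) in place of Loxl1. Over the other comparisons the leave-one-out counts were 0 to 1 at 9 against 3 months, 0 at 15 against 9, 0 to 2 at 28 against 24, 5 to 6 at 28 against 3, 4 to 5 at 28 against 15, 7 to 9 for any age and 2 to 3 for departure from a straight line. The count at 9 against 3 months, 1 as reported, was 0 with no filter on low counts, with a threshold of 0.05 and without the mice low in smooth muscle markers, and 2 with the score covariates. At 15 against 9 months it was 1 with the covariates (Fbn1). At 28 against 24 months it was 2 with DESeq2, 1 with at least 10 counts in every mouse, 2 with the covariates, 2 without the mice low in smooth muscle markers and 1 without those with pancreatic markers. For single members, 805 of 860 values kept their direction and their side of the threshold, 16 lost and 20 gained a call, and 19 changed sign.

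With the score covariates, the log2 values that changed sign were, at 9 against 3 months, Loxl3 (-0.0072) and Postn (-0.0323), at 15 against 9, Loxl4 (-0.0109), at 24 against 15, Sparc (-0.0242), at 28 against 24, Postn (0.0156), at 28 against 3, Loxl1 (-0.164, edgeR adjusted p = 0.0283), Loxl2 (-0.117, 0.0553) and Fbn1 (-0.167, 0.00846), and at 28 against 15, Loxl2 (-0.0271), Loxl3 (-0.0187) and Fn1 (-0.025). The 3 at 28 against 3 months passed the threshold with the other sign, and the cause was not tested. Without the mice low in smooth muscle markers, the sign changed for Postn at 9 against 3 months (-0.0638), Loxl2 (-0.0164) and Loxl4 (-0.0152) at 15 against 9, and Loxl2 (-0.0245) and Fbn1 (-0.0691) at 28 against 3. Without those with pancreatic markers it changed for Loxl4 at 15 against 9 (-0.00315) and Postn at 28 against 24 (0.0108), and with only the 2 ages compared for Loxl4 at 15 against 9 (-0.0152). Leave-one-out ranges that crossed 0 were, at 9 against 3 months, Loxl1 (-0.0595 to 0.007), Loxl2 (-0.0607 to 0.00966) and Postn (-0.032 to 0.0338), at 15 against 9, Lox (-0.0229 to 0.0522), Loxl4 (-0.0555 to 0.0537) and Eln (-0.0743 to 0.00864), and at 28 against 3, Eln (-0.0799 to 0.0124) and Fbn1 (-0.0176 to 0.0527). None of the values in this paragraph was called as reported.

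Replicate numbers did not pair the mice: of 161 pairs with the same number at different ages 27 had a correlation over 0.1, and 3 of 83 mice correlated best with a mouse of their own number. With the replicate block, 1, 0, 5, 0, 5 and 4 members were called at 9 against 3, 15 against 9, 24 against 15, 28 against 24, 28 against 3 and 28 against 15 months, 9 for any age and 3 for departure from a straight line; Sparc lost its call at 28 against 3 months (adjusted p = 0.163) and Loxl2 gained one for any age (0.0834).

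Counts over all genes moved by more than 1.5 times at 9 against 3 months (1593 as reported; 882 with no filter, 487 without the mice low in smooth muscle markers, 901 with only the 2 ages), 15 against 9 (79; 125 with DESeq2, 180 with the covariates) and 24 against 15 (2476; 1524 with no filter, 1591 without the mice with pancreatic markers). At 15 against 9 months, at least 10 counts in every mouse lowered the share called higher by 13.4 percentage points. Of the 45 pairs of members, 43 had an adjusted permutation p below 0.1 with DESeq2 size factors and 45 with a prior count of 0.5. Bulk RNA and 1 section of colon limit what the levels show, as do Loxl4 counts of 48 to 222.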
